A study of Mus musculus with 10 samples.

Results

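The Janus kinases (JAKs) and the signal transducers and activators of transcription (STATs) were measured in haematopoietic stem cells (HSCs) sorted from mouse bone marrow, together with Sh2b3, an adaptor that restrains the kinases. Doxycycline had been given to switch on a Sox17 transgene in the transgenic mice. Of 10 genes listed (Jak1, Jak2, Jak3, Tyk2, Stat3, Stat4, Stat5a, Stat5b, Stat6 and Sh2b3), 9 had a probe set to which the platform annotation gives that gene alone, out of 19938 genes with such a probe set. Jak3 lay only on a probe set shared with Insl3 and is given apart. Each of the 9 genes had 1 probe set. None of the 9 passed the threshold between transgenic and wild-type cells, while the receptor genes Csf2rb and Il10ra and the feedback inhibitor gene Cish rose. Of 20 fits with changed processing or 1 array left out, Csf2rb passed in 20, Il10ra in 19 and Cish in only 5.

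Cytokine receptors without a kinase domain of their own bind a JAK at their inner tail. When a cytokine brings the receptor chains together, the JAKs phosphorylate each other and the receptor, STAT proteins dock there, are phosphorylated, pair up and act as transcription factors in the nucleus. In HSCs the thrombopoietin receptor signals in this way through JAK2 and the STAT5 proteins. Sh2b3, also called Lnk, limits that signal, and SOCS proteins and Cish, which STATs induce, feed back on it. This control runs largely through phosphorylation, which an array of RNA levels does not measure.

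Each group had 5 arrays, and each array held amplified RNA of 10000 uncultured cells, double-sorted by CD150, Sca1 and cKit and the lack of CD48 and lineage markers. The transgenic mice carried (tetO)7CMVSox17-IRES-NucEGFP, a Sox17 transgene under a tetracycline-responsive promoter, and the allele Gt(ROSA)26Sortm1(rtTA*M2)Jae of a B6.Cg strain, whose transactivator, made from the ROSA26 locus, switches the transgene on when doxycycline is present. That locus is active in most cell types, so the transgene was not limited to HSCs by design. The controls were littermates labelled wild type. Mice of both groups were 8 weeks old and had drunk doxycycline at 2 mg/ml for 5 days. Since the labels tie no aliquot to an animal, all p-values refer to the spread among these samples only, part of which may be technical.

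The values were log2 expression values after robust multi-array averaging (RMA), with array medians of 5.45 to 5.56. Sox17 itself averaged 4.37 in transgenic and 4.21 in wild-type samples (limma, adjusted p = 0.855), so the direction of each difference rests on the labels. Both means lay under 5.31, the level under which 95% of olfactory and vomeronasal receptor genes, a reference for genes not expected in blood cells, averaged. Whether this probe set reads the transcript of the transgene was not tested. Markers of the sorted cells (6 of 7 measured, Kit and Slamf1 among them) averaged 8.45 to 8.63 in transgenic and 8.13 to 8.50 in wild-type samples. Of these 0 were called and 4 had a positive difference. They did not move together: Procr differed by 1.08 (limma, adjusted p = 0.247), Slamf1 by 0.19 (adjusted p = 0.958) and Kit by -0.47 (adjusted p = 0.248). The arrays were split into 2 sets. Set A held transgenic arrays 1, 2 and 3 with wild-type arrays 1 and 2. Set B held transgenic arrays 4 and 5 with wild-type arrays 3, 4 and 5. Both were defined from the values, by side of the leading principal axis of deviations from the group mean (40.1% of their variance). Such deviations balance out within each group, so the split cuts across the groups by construction. Transgenic array 4 alone had the X-inactivation transcript Xist at a low level, 4.32 against at least 10.8 on the other arrays, and the Y-linked transcript Eif2s3y at a high level, 9.23 against at most 2.87. It therefore reads as RNA of a male and the other 9 arrays as RNA of females, and the part of this in the results was not tested; values without that array are given where it decides them.

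The upstream sequences of the genes were read for the core letters that SOX proteins bind, since the transgene encodes a SOX factor. The letters ACAAT, or ATTGT on the other strand, occurred in the 250 bases before the start of 3 of the 10 genes (Jak1, Tyk2 and Stat5b), in 3 of 13 windows where some genes have more than 1 start, against 27.7% of all 32851 windows in the RefSeq table of build GRCm38.p6. The palindromic letters TTCNNNGAA, which STAT dimers bind, occurred in 0 of the 13 windows and in 7.02% of all windows. A match is a description of the letters and not evidence of binding. The 170 bases before the start are shown for the 3 genes with a SOX match, in capitals, and for Stat3 and Sh2b3, whose unadjusted p was smallest and whose windows held no match. They lie on the minus strand at chr4:101265224-101265393 (Jak1), chr9:21131276-21131445 (Tyk2), chr11:100822571-100822740 (Stat5b, 1 of its 2 starts), chr11:100939541-100939710 (Stat3) and chr5:121836105-121836274 (Sh2b3), and are written 5′ to 3′ along the gene.
Jak1: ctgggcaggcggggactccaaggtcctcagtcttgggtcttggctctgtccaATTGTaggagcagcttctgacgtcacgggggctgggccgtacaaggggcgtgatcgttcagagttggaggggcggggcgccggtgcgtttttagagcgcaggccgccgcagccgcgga
Tyk2: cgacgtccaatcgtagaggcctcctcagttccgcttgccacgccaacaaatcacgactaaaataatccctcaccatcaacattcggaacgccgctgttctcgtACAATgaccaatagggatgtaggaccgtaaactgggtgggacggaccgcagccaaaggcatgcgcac
Stat5b: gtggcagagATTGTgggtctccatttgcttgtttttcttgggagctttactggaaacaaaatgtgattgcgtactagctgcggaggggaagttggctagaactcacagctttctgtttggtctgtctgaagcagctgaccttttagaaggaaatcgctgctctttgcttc
Stat3: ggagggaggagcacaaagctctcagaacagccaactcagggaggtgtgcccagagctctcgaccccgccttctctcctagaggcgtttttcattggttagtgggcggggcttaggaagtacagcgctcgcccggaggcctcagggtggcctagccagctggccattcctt
Sh2b3: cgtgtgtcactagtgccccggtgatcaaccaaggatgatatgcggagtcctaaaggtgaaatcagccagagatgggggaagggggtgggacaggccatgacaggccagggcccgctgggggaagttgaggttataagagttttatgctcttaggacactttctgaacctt

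The kinases, STATs and Sh2b3 read above the level of odour and pheromone receptor genes, taken as a reference for genes not expected in blood cells. Over all 10 arrays their means ran from 6.02 (Tyk2) to 9.79 (Jak1), while 95% of 1194 olfactory and vomeronasal receptor genes averaged under 5.31. Probe sets differ in brightness, so these levels do not rank the genes against each other. Between groups, 7 of the 9 genes had a positive difference and 2, the STAT5 genes, a negative one. The differences ran from -0.09 to 0.33 log2 units with a median of 0.15, where the median over all 19938 genes was -0.01 and 45.7% of those were positive. By limma with Benjamini-Hochberg adjustment over 23410 probe sets, 0 of the 9 passed 0.05 (adjusted p of 0.681 to 0.972), where 0.141% of all tested probe sets passed. An unadjusted p under 0.05 was found for 2 of the 9, Stat3 and Sh2b3, both higher, where 6.59% of all probe sets had one and 3.70% had one with a higher value. The groups overlapped in all 9 genes, as they did in all but 1.47% of all probe sets. The 95% intervals of the single differences, not adjusted for the number of genes, reached no lower than a 0.796-fold and no higher than a 1.69-fold level on the transgenic arrays.

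**Figure D1:**
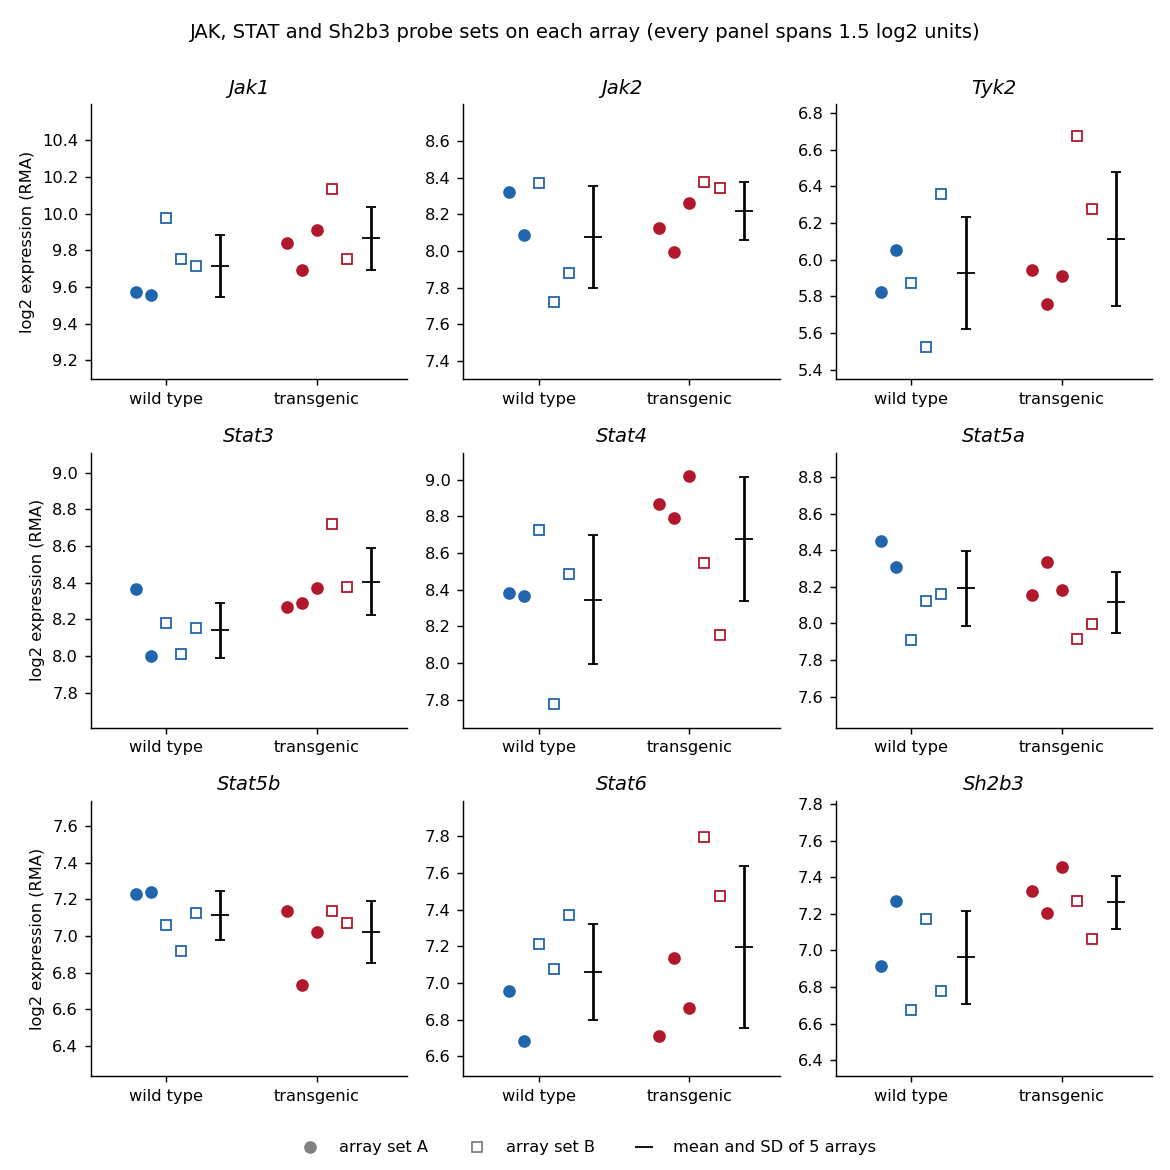
Log2 expression of the 9 measured genes on each array, by group, with circles for array set A, open squares for array set B and bars for the mean and SD of 5 arrays; every panel spans 1.5 log2 units. The groups overlap in every panel, and transgenic array 4 is the highest transgenic point for Jak1, Jak2, Tyk2, Stat3 and Stat6.

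Among the kinases, Jak1 serves interferon, gp130 and common gamma chain receptors. It read 9.84, 9.69, 9.91, 10.14 and 9.75 on transgenic arrays 1 to 5 and 9.57, 9.55, 9.97, 9.75 and 9.71 on wild-type arrays 1 to 5. Only transgenic array 4 lay above the highest wild-type array, and the difference of 0.15 (SE 0.11, 95% interval -0.09 to 0.39) did not pass (limma, adjusted p = 0.914). Jak2, the kinase of the thrombopoietin and erythropoietin receptors, read 8.13, 7.99, 8.26, 8.38 and 8.34 on the transgenic arrays and 8.32, 8.09, 8.37, 7.72 and 7.88 on the wild-type arrays. Transgenic array 4 lay just above the highest wild-type array, the other transgenic arrays lay within the wild-type range, and wild-type arrays 4 and 5 were the lowest of all. The difference in Jak2 was 0.14 (SE 0.13, 95% interval -0.15 to 0.44, adjusted p = 0.946).

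Tyk2 acts with interferon, interleukin-12 and interleukin-10 family receptors. It read 5.94, 5.76, 5.91, 6.67 and 6.28 on the transgenic arrays and 5.83, 6.06, 5.87, 5.52 and 6.36 on the wild-type arrays. Its arrays spread over 1.15 log2 units, and 6.67 on transgenic array 4 was the 1 transgenic value above all wild-type values. The difference of 0.19 (SE 0.19, adjusted p = 0.951) came to 0.05 without that array. Jak3 pairs with the common gamma chain in lymphoid cells, while Insl3 encodes a peptide hormone, and their shared probe set cannot tell them apart. That probe set read 7.53, 7.25, 7.51, 8.11 and 8.29 on the transgenic arrays and 7.31, 7.27, 7.94, 7.88 and 8.17 on the wild-type arrays. The values followed the array sets, at 7.25 to 7.53 in set A and 7.88 to 8.29 in set B, and the group difference was 0.02 (SE 0.23, adjusted p = 0.998).

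Stat3, which carries signals of the gp130 and interleukin-10 receptors, had the smallest p of the 9 genes. It read 8.27, 8.29, 8.37, 8.72 and 8.38 on the transgenic arrays and 8.37, 8.00, 8.18, 8.01 and 8.15 on the wild-type arrays. Of the 5 transgenic arrays, 3 lay above the highest wild-type array, by little except for array 4, and wild-type array 1 lay within the transgenic range. Stat3 averaged 8.40 ± 0.18 in transgenic and 8.14 ± 0.15 in wild-type samples (SD, n = 5 each), a difference of 0.26 (SE 0.11, 95% interval 0.03 to 0.50) that did not pass over all probe sets (adjusted p = 0.681). Without transgenic array 4 it was 0.19.

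Stat4 transmits interleukin-12 signals, chiefly in T and NK cells. It had the largest difference of the 9, with 8.87, 8.79, 9.02, 8.54 and 8.15 on the transgenic arrays and 8.38, 8.36, 8.72, 7.78 and 8.49 on the wild-type arrays. Transgenic arrays 1, 2 and 3 lay above every wild-type array, and arrays 4 and 5 did not. The difference of 0.33 (SE 0.19, 95% interval -0.10 to 0.76, adjusted p = 0.882) was 0.46 without transgenic array 5 and was 0.19 without wild-type array 4. Of 7 measured T and NK cell markers 0 were called, 1 (Klrb1c) had a positive difference, and 5 (Cd3d, Cd3g, Cd2, Ncr1 and Klrb1c) averaged under the level of 95% of the receptor genes used as reference. The marker mean was 4.34 to 4.75 in transgenic and 4.59 to 4.80 in wild-type samples. Nkg7 in that list, picked after its values were seen, differed by -1.17 (limma, adjusted p = 0.218). It read 5.39 to 7.10 in transgenic and 7.22 to 8.06 in wild-type samples, so its groups did not overlap, as in 1.47% of all probe sets.

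The STAT5 genes, which lie with Stat3 on chromosome 11 and encode close paralogs that carry the thrombopoietin and interleukin-3 signals, were the only 2 of the 9 with a negative difference. Stat5a read 8.15, 8.34, 8.18, 7.91 and 7.99 on the transgenic arrays and 8.45, 8.31, 7.91, 8.12 and 8.16 on the wild-type arrays. No transgenic value of Stat5a lay outside the wild-type range, and its difference was -0.07 (SE 0.12, 95% interval -0.33 to 0.18, adjusted p = 0.972). Stat5b read 7.14, 6.73, 7.02, 7.14 and 7.07 against 7.23, 7.24, 7.06, 6.92 and 7.12, with transgenic array 2 below all other arrays. Its difference was -0.09 (SE 0.10, 95% interval -0.31 to 0.13, adjusted p = 0.952), and without transgenic array 2 it was -0.02. Whether probes of the paralogs share signal was not tested.

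Stat6, the factor of interleukin-4 and interleukin-13, read 6.71, 7.14, 6.87, 7.80 and 7.47 on the transgenic arrays and 6.95, 6.68, 7.21, 7.08 and 7.37 on the wild-type arrays. Its 2 highest values were transgenic arrays 4 and 5 and its 2 lowest were wild-type array 2 and transgenic array 1. The difference was 0.14 (SE 0.20, 95% interval -0.31 to 0.59, adjusted p = 0.968), and it turned to -0.01 without transgenic array 4.

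Sh2b3 read 7.33, 7.20, 7.46, 7.27 and 7.06 on the transgenic arrays and 6.92, 7.27, 6.67, 7.17 and 6.78 on the wild-type arrays. All 5 transgenic arrays lay above the wild-type median, but wild-type arrays 2 and 4 lay within the transgenic range. Sh2b3 averaged 7.26 ± 0.14 and 6.96 ± 0.25 (SD, n = 5 each), a difference of 0.30 (SE 0.13, 95% interval 0.02 to 0.58) that did not pass over all probe sets (adjusted p = 0.700). Leaving out any 1 array gave 0.23 to 0.38.

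**Figure D2:**
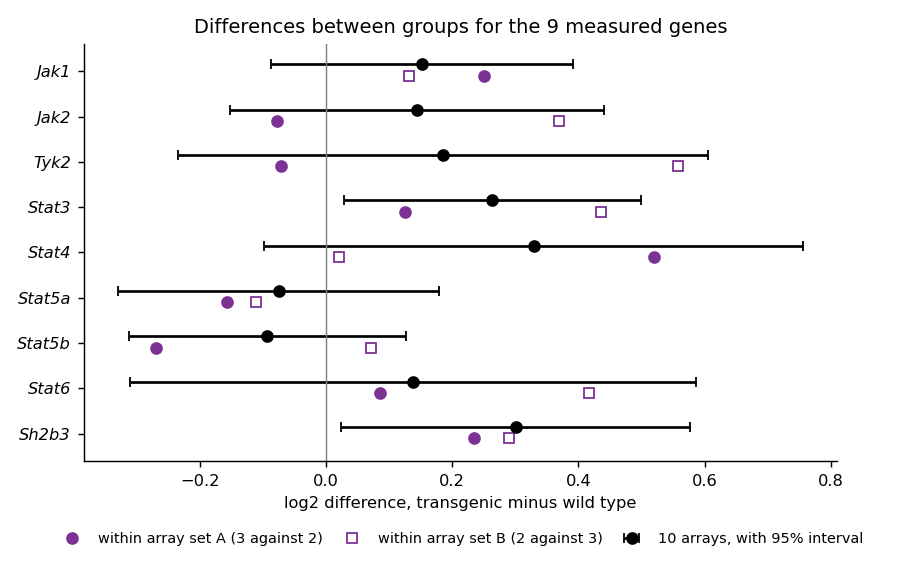
Log2 differences, transgenic minus wild type, of the 9 measured genes with the 95% interval of the fit over 10 arrays (black), and the difference of means within array set A (filled circles) and within array set B (open squares). Only the intervals of Stat3 and Sh2b3 leave out 0, and the 2 sets lie on opposite sides of 0 for Jak2, Tyk2 and Stat5b.

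Set against the array sets, 6 of the 9 genes kept one sign in both, 5 of them positive (Jak1, Stat3, Stat4, Stat6 and Sh2b3) and Stat5a negative. The difference was 0.13 (set A) and 0.44 (set B) in Stat3, and 0.23 and 0.29 in Sh2b3. For Stat4 it was 0.52 and 0.02 in the same order, for Jak2 -0.08 and 0.37, and for Tyk2 -0.07 and 0.56. Whether the differences in the sets themselves differ was not tested. The sets parted Stat6 more than the groups did, with means of 6.87 over set A but 7.39 over set B, and Stat5a likewise, with 8.29 and 8.02. With the set as a block in limma 0 of the 9 passed, where 0.389% of all probe sets did. The difference was 0.28 for Stat3 (adjusted p = 0.469) and 0.26 for Sh2b3 (adjusted p = 0.583). Since the sets were drawn from the same values, p-values with this block can be too small. A pass with it alone is therefore no added support.

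The genes whose values followed Stat3 most closely over the 10 arrays were Osbpl9, Heatr5a, Abraxas2, Cd84 and Ubn1. Their values, centred on each gene's mean, lay at a root mean square distance of 0.0766 to 0.102 log2 units from those of Stat3, where the median over all genes was 0.283. All 5 read highest on transgenic array 4, as Stat3 did. Of the other genes of the group, Jak1 and Jak2 came nearest, at 0.167 and 0.168, places 344 and 372 among 19937 genes. Stat4 was the farthest at 0.339. A gene with the same value on all arrays would lie at 0.199 from Stat3. Jak1 and Jak2 were thus only a little nearer than such a gene, and the rest of the group were farther. No correlation is given, since the arrays were split into 2 sets of 5 that part the values of many genes.

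Among the receptors that use these kinases, Csf2rb and Il10ra rose, 2 of 33 measured genes (0.120% of all probe sets were called higher), and 0 fell. Of the 33 genes 21 had a positive difference, where 45.7% of all 19938 genes did, and the list's median was 0.06. Csf2rb, the common beta chain of the interleukin-3, interleukin-5 and GM-CSF receptors, which signals through Jak2, read 7.77, 7.47, 7.82, 7.83 and 7.98 on the transgenic arrays and 6.82, 6.53, 6.41, 6.70 and 6.08 on the wild-type arrays. Its groups did not overlap, and it rose 2.40-fold (95% interval 1.94 to 2.98, limma, adjusted p = 0.00831). Il10ra, a chain of the interleukin-10 receptor, which signals through Jak1, Tyk2 and Stat3, read 7.48, 6.33, 8.14, 7.71 and 7.34 on the transgenic arrays and 5.05, 5.02, 5.26, 4.71 and 5.49 on the wild-type arrays. Of its wild-type values 4 of 5 lay under the reference level of 5.31, so the wild-type level is a bound. With each wild-type array set at 5.31 or its own value if higher, the point estimate for Il10ra was a 4.15-fold rise. By the values as measured it was 4.92-fold (95% interval 3.19 to 7.58, limma, adjusted p = 0.0110). The call was lost when values were floored at the 20th percentile of the arrays (limma, adjusted p = 0.0792). That floor cut the calls over all probe sets from 33 to 8, and the cause of the loss was not tested. The interferon gamma receptor chain Ifngr2 (difference 0.70, adjusted p = 0.0917) and the interleukin-3 receptor chain Csf2rb2 (1.03, adjusted p = 0.110), a close paralog of Csf2rb, did not pass. With the array set as a block Csf2rb2 did (adjusted p = 0.0161), but that block was drawn from the same values.

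Of 19 measured inhibitors of the pathway, Cish alone rose and 0 fell, where 0.120% of all probe sets were called higher. Of the 19 genes 16 had a positive difference, with a median of 0.14. Over all 19938 genes 45.7% were positive, with a median of -0.01. Cish read 7.63, 6.98, 7.88, 7.50 and 7.91 on the transgenic arrays and 6.09, 6.52, 6.72, 6.59 and 6.37 on the wild-type arrays. Every transgenic value lay above every wild-type value (2.17-fold, 95% interval 1.65 to 2.86, limma, adjusted p = 0.0447), but the call is close to the threshold: it was lost when any array other than transgenic array 2 was left out (adjusted p of 0.0726 to 0.130). Without transgenic array 2 it was 0.00485. Socs2, a further feedback inhibitor, read 9.76, 8.19, 9.95, 9.58 and 9.58 against 6.94, 7.47, 8.25, 7.22 and 6.24. Transgenic array 2 reached down to wild-type array 3, and the difference of 2.19 (SE 0.39) did not pass (adjusted p = 0.0743). A second Socs2 probe set differed by 1.11 (SE 0.18, adjusted p = 0.0515) and did not pass either. Its groups did not overlap, with 7.17 to 8.11 in transgenic and 6.20 to 6.88 in wild-type samples. Under the array set block, drawn from the same values, both probe sets passed (limma, adjusted p = 0.0476 for the first and 0.0382 for the second). Cbl and Cblb, ubiquitin ligases, differed by 0.35 and 0.25 (adjusted p = 0.618 and 0.690).

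**Figure D3:**
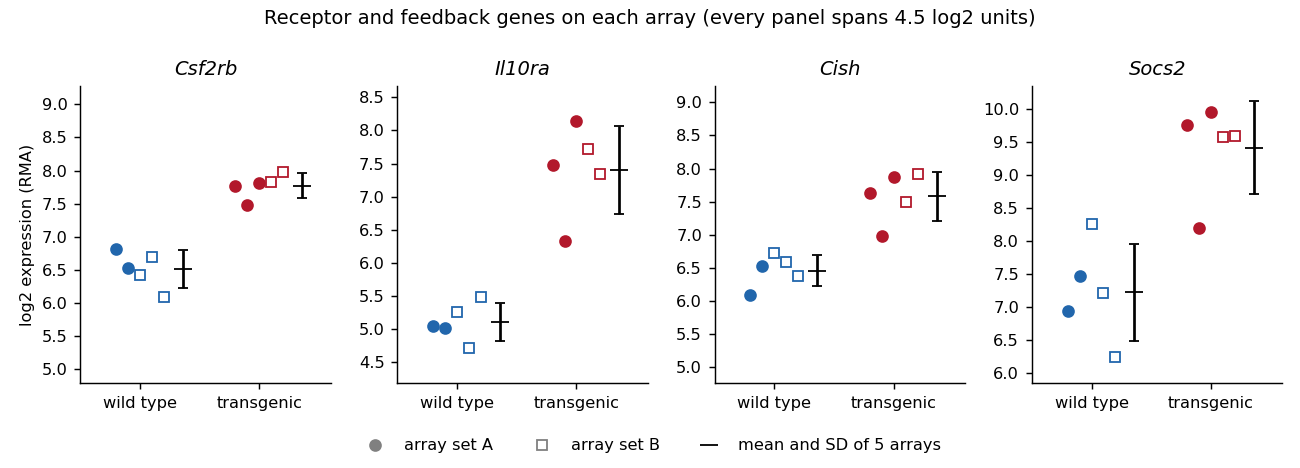
Log2 expression of Csf2rb, Il10ra, Cish and Socs2 on each array, by group, with circles for array set A, open squares for array set B and bars for the mean and SD of 5 arrays; every panel spans 4.5 log2 units. The groups are apart for Csf2rb, Il10ra and Cish. They meet for the Socs2 probe set with the higher mean, shown here, where transgenic array 2 read 8.19 and wild-type array 3 read 8.25.

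Of 21 measured genes known as STAT targets, a list that also holds Cish and Socs2, Cish was the 1 called and 0 fell. Of all probe sets 0.120% were called higher. A positive difference was found in 15 of the 21, with a median of 0.24, where 45.7% of all 19938 genes were positive with a median of -0.01. The proto-oncogene Myc differed by -0.72 (SE 0.15, adjusted p = 0.145), with 9.53 to 9.94 in transgenic and 10.04 to 10.79 in wild-type samples. Myc did pass as lower in 2 of 20 alternatives, the replicate number block and the array set block (limma, adjusted p = 0.0186 with the latter). The array set block was drawn from the same values, and replicate numbers did not pair the arrays. The survival kinase Pim2 differed by 0.94 (SE 0.27, adjusted p = 0.375). Of 6 measured relatives and adaptors of the JAK and STAT genes 0 were called, with differences of -0.39 (Sh2b1), 0.13 (Stam2), -0.11 (Sh2b2) and 0.09 (Stam) for the 4 with the smallest p.

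**Figure D4:**
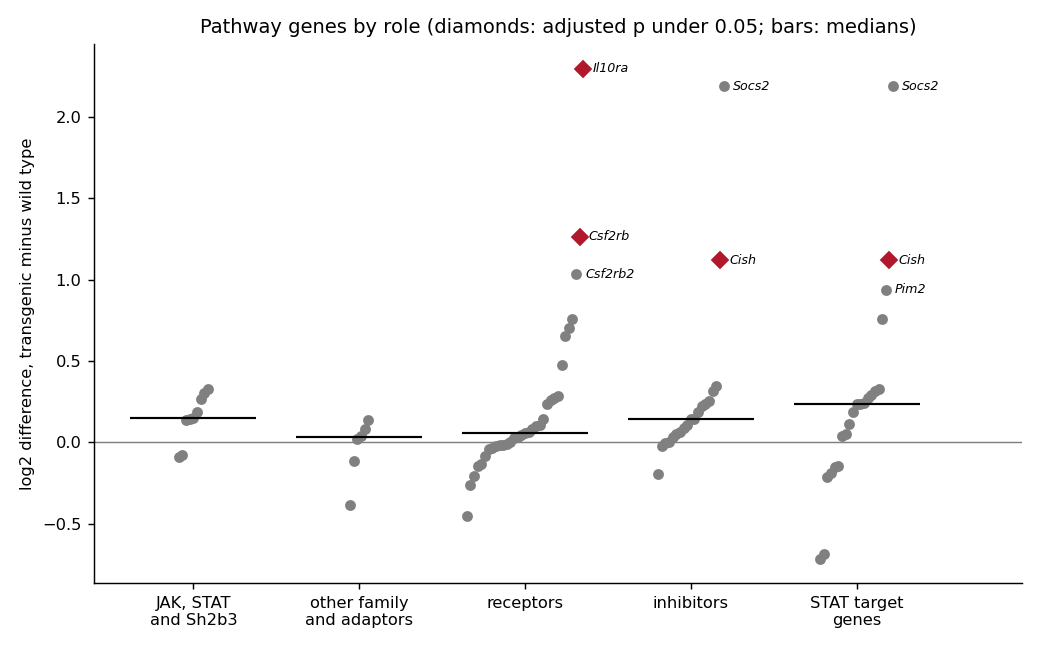
Log2 differences, transgenic minus wild type, of the measured genes by role, 1 point a gene; diamonds passed an adjusted p of 0.05 and bars are list medians. The 9 JAK, STAT and Sh2b3 genes lie between -0.09 and 0.33, while Il10ra, Csf2rb and Cish passed with differences of 2.30, 1.26 and 1.12.

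Levels of other cell markers stand beside these results; no test of a list mean was made. The mean of Cd48, Flt3 and Cd34, which mark multipotent progenitors, was 7.53 to 8.41 in transgenic and 6.64 to 7.37 in wild-type samples, with 0 of 3 called. The mean of 6 measured megakaryocyte and platelet markers was 5.90 to 6.28 in transgenic and 6.73 to 7.30 in wild-type samples, with Pf4 called lower and Ppbp under the reference level. The mean of 9 granulocyte and monocyte markers was 5.86 to 7.24 and 5.57 to 6.04, with 0 called and 4 (Elane, S100a8, Itgam and Csf1r) under the reference level. The mean of 7 endothelial markers was 6.93 to 7.40 and 6.23 to 6.60, with Egfl7 called higher and Kdr under the reference level. In sorted cells measured in bulk, more cells of a kind and more RNA per cell cannot be told apart, and the part of these markers in the rise of Csf2rb, Il10ra and Cish was not tested.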

How the data were processed

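RNA of 5 transgenic and 5 wild-type samples was measured on gene arrays. The authors deposited log2 values normalized by RMA; RMA, affy and limma are named in the submitters' processing notes, without versions. Of 35556 probe sets, 23410 carry at least 1 gene symbol in the platform annotation and were tested, 21789 with 1 symbol and 1621 with several; 12146 are unnamed. Per gene, the one-symbol probe set with the highest mean was used. Groups were compared by a two-sided limma test (version 3.58.1, R 4.3.3; lmFit, then eBayes; Benjamini-Hochberg at 0.05), tested on simulated data. The number of arrays limits the precision. Named genes were the 10 listed, from each pathway list those that passed or else up to 4 with the smallest p, and the 5 nearest to Stat3. Cd48 and the other markers come from fixed marker lists. The genes and lists were chosen with earlier results of these data known. Alternatives changed the block, scaling, filter, variance model, floor, probe set rule and array set. The array sets were defined from the data. Of the other marker lists, erythroid markers averaged 5.96 to 6.39 (transgenic) and 6.20 to 6.56 (wild type), and B cell markers 4.59 to 4.93 and 4.74 to 5.06, with 0 called.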

Additional observations from a re-analysis of the deposited data

Results flagged for a closer look

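In 4 of 46 groups of 5 arrays 1 array stood apart by Dixon's criterion, which chance meets in about 1 in 20 groups; 2 of them were among the 18 groups of the JAK, STAT and Sh2b3 genes. Stat3 read 8.72 on transgenic array 4, while the rest of its group read 8.27 to 8.38. Stat5b read 6.73 on transgenic array 2 and 7.02 to 7.14 on the others of its group. Sh2b2 read 5.86 on wild-type array 3 and 6.03 to 6.10 on the others. Socs2 read 8.19 on transgenic array 2 and 9.58 to 9.95 on the others. Transgenic array 4 was also the array with Xist at 4.32; the part of that in the value of Stat3 was not tested.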

How the results depend on the processing

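Under 20 alternatives 0 of the 9 genes passed. Of 198 values for them 194 kept their sign; the 4 others were Jak2 (-0.077) and Tyk2 (-0.070) within array set A, Stat5b (0.072) within set B, and Stat6 without transgenic array 4. Stat6 ran from -0.012 to 0.26 and the adaptor Stam from -0.037 to 0.16 when 1 array was left out. The number of the 9 with an unadjusted p under 0.05 was 2, and 0 with the replicate number as a block, 1 after quantile normalization, 0 with a trended and robust variance, and 0 to 3 without 1 array (0 without transgenic array 4); this count was added after seeing the data. The 33 probe sets called became 33 with the replicate block, 91 with the array set as a block, 15 over all probe sets, 8 with the floor, and 15 to 71 without 1 array. Receptors called were 3 with the replicate block or the array set block, Csf2rb2 passing in each (adjusted p = 0.0414 and 0.0161), 1 with the floor, and 2 to 3 without 1 array. Inhibitors called were 0 with the replicate block, quantile normalization, median centring, all probe sets, array weights or the floor, 2 with the array set block, brighter probe sets or the mean of probe sets, and 0 to 2 without 1 array. STAT targets called were 0 with quantile normalization, median centring, all probe sets, array weights or the floor. They were 3 with the array set block, 2 with brighter probe sets or the mean, and 0 to 2 without 1 array. With the replicate block 1 was called, which was Myc as lower and not Cish. The causes were not tested. Replicate numbers did not pair the arrays: deviations of same-numbered arrays correlated at 0.24, 0.35, -0.14, 0.11 and 0.33, and 1 of 10 arrays correlated best with its own number.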
